A study of Mus musculus with 18 samples.

Results

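The 66 genes described here encode the replication-dependent histones of the mouse, and they are 66 of the 21887 protein-coding RefSeq genes on chromosomes 1 to 19, X and Y. They were chosen by symbol (H1f, H2ac, H2bc, H3c and H4c, or the older names starting Hist1h, Hist2h and Hist3h) and by position in the histone clusters of chromosome 13 (21.5 to 24 Mb, 54 genes), chromosome 3 (96.1 to 96.4 Mb, 10 genes) and chromosome 11 (58.8 to 59.1 Mb, 2 genes) of mm10. Of these, 6 encode the linker histone H1, 18 encode H2A, 18 encode H2B, 12 encode H3 and 12 encode H4.

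The study compared mouse embryonic stem cells of 3 genotypes, the Mettl3 knockout lines KO1 and KO2 and a Mettl3 Control, by ChIP-seq for H3K27ac and H3K4me3 with 2 libraries per genotype and mark. METTL3 is the catalytic part of the complex that methylates adenosines of RNA at the N6 position. All 3 genotypes have a C57BL/6 background and were grown in serum with LIF at 1000 U/ml, the GSK3 inhibitor CHIR99021 at 3 µM and the MEK inhibitor PD0325901 at 1 µM. The alleles of KO1 and KO2, whether either line is a single clone, and whether replicates came from separate cultures are not given in the sources used here, so p-values cover only the spread of these libraries, and that spread may be purely technical.

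Replication-dependent histone genes are short, lack introns in most cases and are transcribed together in S phase, when new DNA has to be packed into nucleosomes. H2A, H2B, H3 and H4 form the nucleosome core and H1 binds the linker DNA. Their mRNAs end in a stem-loop in place of a poly(A) tail, and the factor NPAT brings their transcription under the control of cyclin E and CDK2 in nuclear histone locus bodies. H3K4me3 marks the first nucleosomes of active promoters, and H3K27ac marks active promoters and enhancers.

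The promoters of these genes are compact. RefSeq promoter sequences (GRCm38.p6, the assembly of mm10) were available for 61 of the 66 genes and span 250 bases before to 50 bases after the gene start. The letters CCAAT, on either strand, occurred in all 6 H1, all 18 H2A, all 16 H2B and all 10 H3 promoters, in 3 of 11 H4 promoters, and in 37.3% of the 32789 other promoters in the table. TATAAA occurred in 57.4% of the histone promoters and in 13.5% of the others. ATTTGCA, the core of the octamer that POU-domain factors recognise, occurred in 7 of 18 H2A and 6 of 16 H2B promoters and in no H1, H3 or H4 promoter, against 3.99% of the others. AAACACA, known from H1 promoters, occurred in 5 of 6 H1 promoters and in 7.17% of the others. In 10 pairs of H2A and H2B genes the starts lie 164 to 281 bp apart, so their promoters overlap and 1 match can count for both genes. The identical promoters of H2bc23 and H4bc24 were also counted separately. None of these motifs contains another, and a match is a description of the letters only.

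The 250 bases before the start are shown for 6 genes on which the results turn, with every match to these motifs on either strand in capitals. H2bc6 had the largest H3K27ac difference of all members, read at the outermost RefSeq start of an entry 37455 bp long. H2bc8 shares its promoter with H2ac8, the gene with the largest H3K4me3 difference, whose start lies 180 bp away on the other strand, so the H2bc8 sequence also holds the space before H2ac8. Among H4 genes, H4c3 had the largest difference in H3K27ac and H4c2 the largest in H3K4me3. H4c17 and H4c18 are near-identical and had no peak around their starts. H4c3, H4c2, H4c17 and H4c18 were picked for display after their values were seen.
H2bc6 (chr13:23621095-23621344, minus strand): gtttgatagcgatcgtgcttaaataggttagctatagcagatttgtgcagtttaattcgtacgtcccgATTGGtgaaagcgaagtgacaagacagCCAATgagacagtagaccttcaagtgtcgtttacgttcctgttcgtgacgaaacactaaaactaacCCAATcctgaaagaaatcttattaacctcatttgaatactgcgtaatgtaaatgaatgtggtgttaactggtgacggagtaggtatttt
H2bc8 (chr13:23571150-23571399, plus strand): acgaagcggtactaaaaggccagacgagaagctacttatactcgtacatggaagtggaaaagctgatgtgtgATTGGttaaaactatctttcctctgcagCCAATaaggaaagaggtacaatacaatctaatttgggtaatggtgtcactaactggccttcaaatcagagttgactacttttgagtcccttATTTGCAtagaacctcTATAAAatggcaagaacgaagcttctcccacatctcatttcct
H4c3 (chr13:23698459-23698708, minus strand): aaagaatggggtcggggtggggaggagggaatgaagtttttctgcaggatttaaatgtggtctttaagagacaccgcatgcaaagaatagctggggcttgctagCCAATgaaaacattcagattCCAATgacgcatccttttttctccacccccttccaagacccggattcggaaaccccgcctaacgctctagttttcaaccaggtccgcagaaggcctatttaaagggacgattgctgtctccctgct
H4c2 (chr13:23756687-23756936, plus strand): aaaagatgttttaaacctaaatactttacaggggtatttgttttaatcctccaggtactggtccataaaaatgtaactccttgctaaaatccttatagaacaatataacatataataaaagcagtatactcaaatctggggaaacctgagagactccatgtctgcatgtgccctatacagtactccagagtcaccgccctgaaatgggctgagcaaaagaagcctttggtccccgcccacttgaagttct
H4c17 (chr13:21811496-21811745, plus strand): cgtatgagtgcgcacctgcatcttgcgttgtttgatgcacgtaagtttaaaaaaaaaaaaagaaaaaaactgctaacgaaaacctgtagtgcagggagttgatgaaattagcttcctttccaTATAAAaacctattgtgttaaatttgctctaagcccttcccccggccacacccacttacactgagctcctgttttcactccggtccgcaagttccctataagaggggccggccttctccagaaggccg
H4c18 (chr13:21832198-21832447, minus strand): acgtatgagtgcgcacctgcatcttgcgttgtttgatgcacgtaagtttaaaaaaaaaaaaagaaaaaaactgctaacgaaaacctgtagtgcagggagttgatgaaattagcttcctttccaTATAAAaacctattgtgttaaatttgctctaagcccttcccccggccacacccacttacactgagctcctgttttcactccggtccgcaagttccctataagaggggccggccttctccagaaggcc

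Each deposited list held 29973 to 65398 H3K27ac peaks or 66483 to 83644 H3K4me3 peaks. H3K27ac lists covered 19.6 and 17.5 Mb in KO1, 37.0 and 35.5 Mb in KO2, and 14.4 and 14.6 Mb in Control. H3K4me3 lists covered 46.6 and 45.3 Mb in KO1, 50.05 and 41.7 Mb in KO2, and 58.2 and 56.4 Mb in Control. The lists hold no read totals, so depth is unknown, and the part of list length in each difference below was not tested. Of 10 embryonic stem cell markers, 9 had peaks of both marks at their start in every library, and of 8 feeder fibroblast markers, 7 had no H3K27ac peak in any library, while 5 had an H3K4me3 peak in at least 1. The exception was Vim, with H3K27ac coverage of 7.50% and 7.95% in KO1, 65.3% and 68.5% in KO2, and 0% in both Control libraries (37.3 points; limma adjusted p = 0.00681), and the part of such cells in the results was not tested. H3K4me3 coverage summed over the 8 markers was 133.7 and 122.3 points in KO1, 177.7 and 152.8 in KO2, and 148.7 and 112.5 in Control. Around the start of Mettl3, H3K4me3 peaks covered 67.3% and 77.7% of the window in KO1, 86.2% and 76.9% in KO2, and 85.5% and 99.1% in Control (limma, adjusted p = 0.315 for the mean of both lines), which does not test the knockout because the position of the deleted part is not stated in these sources.

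Most members carried both marks in every library. A peak within 1 kb of the gene was present for both marks in all libraries at 55 of the 66 genes. For H3K27ac, 57 and 57 members had such a peak in KO1, 57 and 58 in KO2, and 56 and 56 in Control. Among all protein-coding genes the share was 47.0% and 46.5% in KO1, 56.3% and 56.4% in KO2, and 39.7% and 41.4% in Control. For H3K4me3, 59 and 57 members had a peak in KO1, 58 and 58 in KO2, and 58 and 58 in Control. Among all protein-coding genes the H3K4me3 share was 65.9% and 65.9% in KO1, 67.7% and 66.3% in KO2, and 66.2% and 66.2% in Control.

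The genes without peaks were few. H2bc1 and H2ac1, a divergent pair of testis histone genes, and H2bc23, H2ac23, H4c17, H2ac24 and H4bc24 had no peak of either mark within 1 kb in any library. H1f6, the testis-specific H1, had no H3K27ac peak, and its H3K4me3 peak was called in KO1 replicate 1 alone. H4c18 had peaks beyond its 3′ end, outside the window around its start, with H3K4me3 missing there in KO1 replicate 2. H2bu2 had H3K27ac in KO2 replicate 2 alone. H4c3 had H3K27ac in all 4 knockout libraries and in neither Control library.

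Apart from the testis genes, those without peaks lie in a repeated stretch of the chromosome 13 cluster. Of the 61 promoters in the table, 49 shared no 50-base stretch with any promoter at another locus, and 10 shared more than 50% of their 50-base stretches. H2bc23 and H4bc24 were identical over 300 of 300 bases, and H4c17 and H4c18 over 298 of 299. The share was 100% for H2bc23 and H4bc24, 94.0% for H4c17 and H4c18, 86.9% for H2ac23 and 73.3% for H2ac24, and all 6 had 0% coverage of both marks in the window in every library. The other 4 with more than 50% shared were marked but low for their classes. H3c14 and H3c15 (74.1% shared) averaged 29.4% and 32.8% H3K4me3 coverage over the 6 libraries, and H2ac18 and H2ac19 (67.7% shared) averaged 49.1% and 50.1%. Whether reads from these copies were placed, and how reads matching several places were handled, is not stated in these sources, so an absent peak at these genes cannot be told apart from reads that could not be placed.

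**Figure D1:**
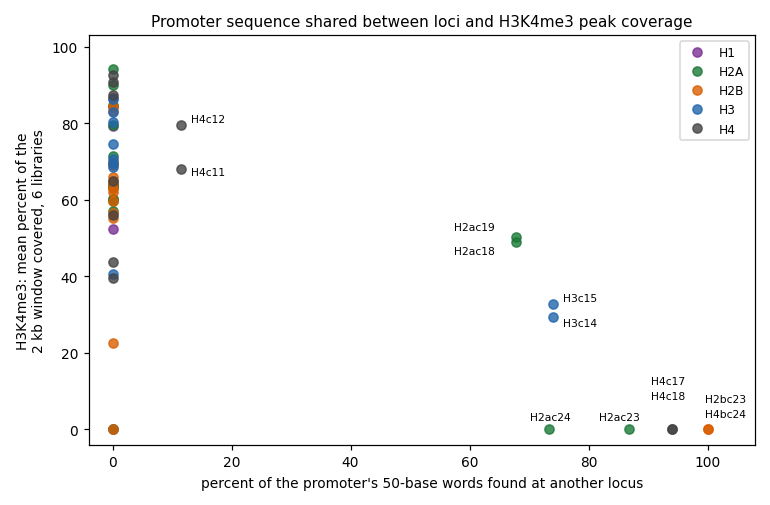
Each point is 1 of the 61 histone genes with a promoter sequence. The x axis gives the percent of its 50-base stretches found at another locus and the y axis the mean H3K4me3 coverage of the 2 kb window over 6 libraries, in percent. The 6 genes H2bc23, H4bc24, H4c17, H4c18, H2ac23 and H2ac24, at 73.3% to 100% shared sequence, lie at 0, and the labelled H3c14, H3c15, H2ac18 and H2ac19 lie between 29.4% and 50.1%.

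Coverage was measured as the percent of the window within 1 kb of the gene start that lay under peaks. Of the 66 windows, 61 were centred on a RefSeq start, and 5 (H2bc21, H4c14, H3c7, H2bc4 and H3c1) on the point of the gene with the most H3K4me3. The windows of 49 members overlapped that of another member, and 10 pairs of H2A and H2B genes start 164 to 281 bp apart in opposite directions, so neighbouring members are not independent. Levels differed widely within each class. Mean H3K4me3 coverage over the 6 libraries was highest at H2ac20 among H2A genes (94.3%), H4c14 among H4 genes (93.6%), H2bc21 among H2B genes (91.9%), H1f1 among H1 genes (86.6%) and H3c3 among H3 genes (86.3%). The windows of H4c14 and H2bc21 were placed by H3K4me3 itself, so their ranks are not independent of that placing. The lowest of the members tested were H2bu2 (22.7%), H3c14 (29.4%), H4c3 (39.5%), H2ac18 (49.1%) and H1f4 (52.3%).

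**Figure D2:**
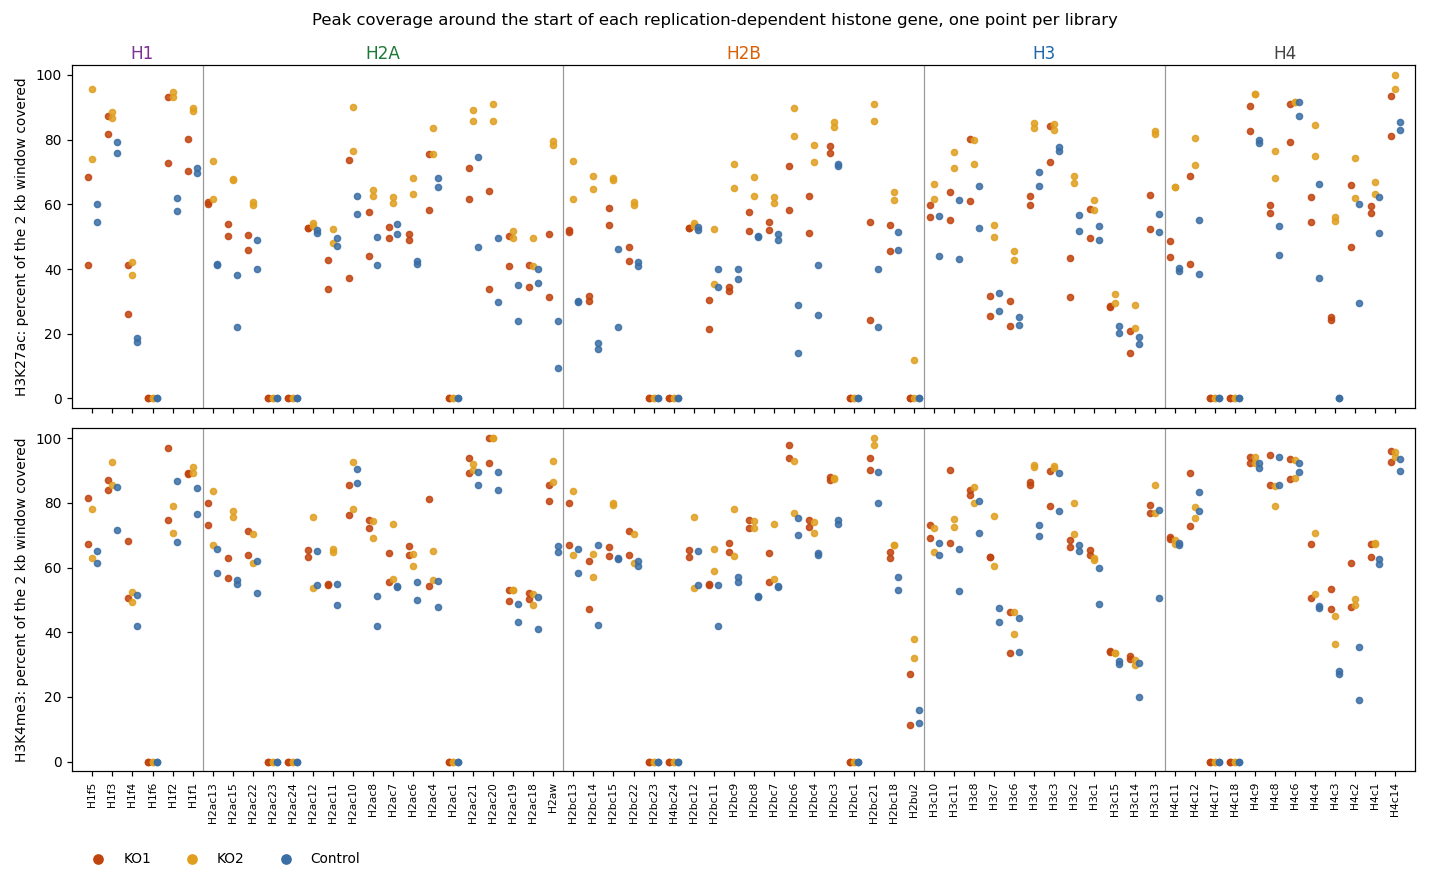
Percent of the 2 kb window covered by H3K27ac (top) and H3K4me3 (bottom) peaks at each of the 66 genes, ordered by class and position, with 1 point per library for KO1, KO2 and Control. Marked genes spread from 11.2% of the window to all of it for H3K4me3, 9 genes lie at 0 for both marks, and for H3K27ac H4c3 has 24.2% to 56.0% in KO1 and KO2 and 0 in Control.

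The marks left a gap at the histone gene start. Over the 54 members with a RefSeq start and a peak of either mark within 1 kb, coverage was lowest 40 to 80 bp before the start and highest 440 to 700 bp after it in all libraries but KO2 replicate 1 for H3K27ac, whose highest point lay 620 bp before it. In the other tested genes with a RefSeq start (8025 for H3K27ac and 10435 for H3K4me3), the lowest point within 500 bp likewise lay 40 to 80 bp before the start, but the highest lay 180 to 200 bp after it. More histone gene starts lay under H3K4me3 peaks in the knockout libraries. The base at the start itself lay under an H3K4me3 peak in 19 and 17 of 54 members in KO1, in 29 and 24 in KO2, and in 9 and 8 in Control. In the other genes it did so in 59.5% and 58.0% in KO1, 59.1% and 54.3% in KO2, and 55.7% and 54.6% in Control.

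Within 240 bp of the start, mean H3K4me3 coverage of the histone genes was 42.2% and 40.4% in KO1, 52.4% and 44.5% in KO2, and 28.4% and 26.9% in Control. Every knockout library lay above both Control libraries. The same order held in the other genes, with 66.0% and 65.2% in KO1, 68.9% and 65.5% in KO2, and 64.7% and 64.0% in Control. Farther out, 500 to 1000 bp from the start, the histone genes had 78.6% and 78.0% in KO1, 78.9% and 74.7% in KO2, and 75.3% and 70.1% in Control. H3K27ac within 240 bp of the start was 22.6% and 21.5% in KO1, 36% and 36.5% in KO2, and 12.2% and 13.8% in Control, while the other genes had 38.2% and 36.7% in KO1, 56.2% and 57.3% in KO2, and 28.4% and 30.5% in Control.

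A small maximum stood inside the gap, in the first 200 bp of the gene. There, at 60 to 100 bp after the start, H3K4me3 peaks lay over 61.1% and 61.1% of the 54 members in KO1, 74.1% and 63.0% in KO2, and 37.0% and 37.0% in Control. Some 220 to 260 bp after the start this share dropped to between 25.9% and 40.7% in all libraries. The main maximum lay farther downstream, at or beyond the end of many of these short genes. No comparable dip was present in the other genes, where at least 85.7% were covered between 160 and 360 bp after the start. These profile values are sums over genes with shared windows and were not tested.

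**Figure D3:**
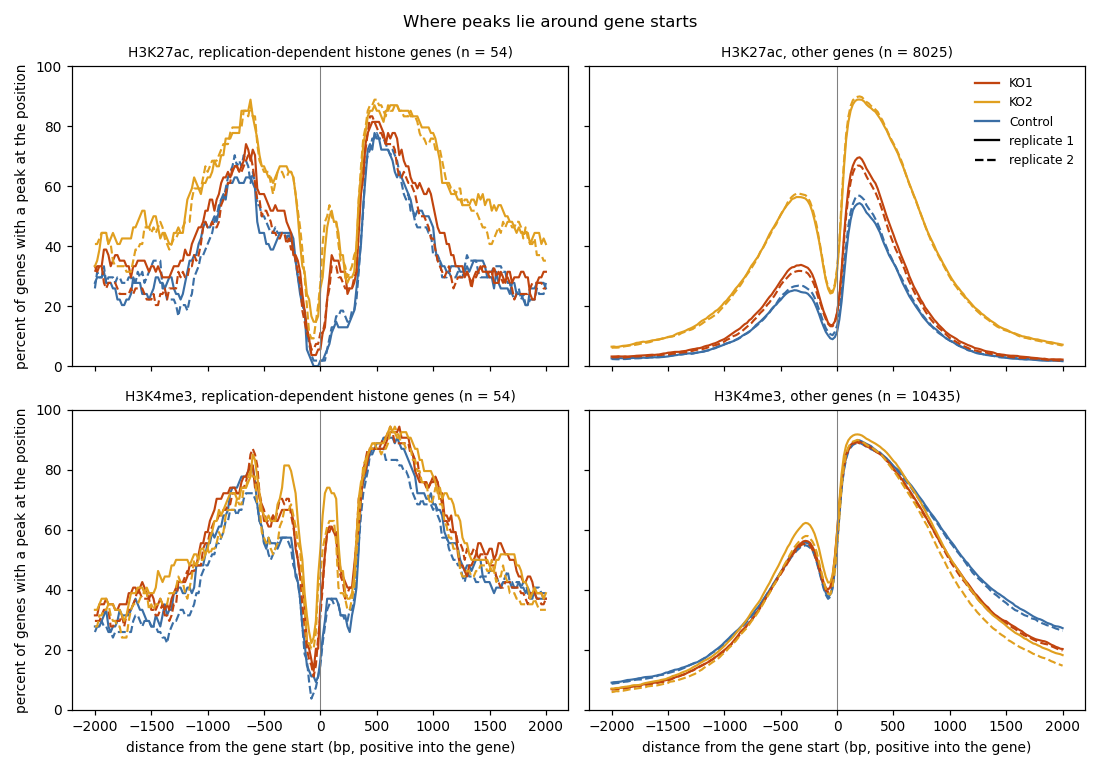
Percent of genes with a peak at each position from 2000 bp before to 2000 bp after the start, for H3K27ac (top) and H3K4me3 (bottom), in the 54 histone genes (left) and the other tested genes (right). Lines are single libraries of KO1, KO2 and Control, solid for replicate 1 and dashed for replicate 2. In histone genes the curve drops toward the start and has its main maximum 440 to 700 bp after it, except in KO2 replicate 1 for H3K27ac (620 bp before it), and the H3K4me3 curves of the knockout libraries lie above those of Control around the start.

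H3K4me3 coverage was above that of Control at most histone genes, although no single gene passed the test. Of 57 members tested, 53 had a positive difference between the mean of KO1 and KO2 and Control, and the median difference was 8.90 points. Of all 13160 genes tested, 6097 had a positive difference and the median was −0.44 points. In limma with Benjamini-Hochberg adjustment over all genes tested, 0 members and 0 genes were called (0% of genes tested), while at an unadjusted p under 0.05 there were 19 members, all higher, and 1835 genes, of which 776 were higher. All 4 knockout libraries lay above both Control libraries at 29 of 57 members (50.9%), against 9.07% of all genes tested, and below both at 0 members, against 11.3% of all genes. By line, the median difference of the members was 7.10 points in KO1 minus Control and 9.05 points in KO2 minus Control, 2 comparisons that share their Control libraries. The KO2 median was 5.40 points without KO2 replicate 1 and 13.3 points without KO2 replicate 2. After quantile normalization 55 of 57 members were positive, with a median of 9.37 points.

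By class, the median H3K4me3 difference was 8.90 points over 5 H1 genes, 9.63 over 15 H2A, 10.2 over 15 H2B, 6.70 over 12 H3 and 2.39 over 10 H4 genes. At H2ac8, an H2A gene, coverage was 72.1% and 74.8% in KO1, 74.5% and 69.2% in KO2, and 42.0% and 51.3% in Control. The groups did not overlap, and the difference was 26.0 points ± 4.09 (SE; limma adjusted p = 0.144). H2bc8, the H2B gene that starts 180 bp away and shares most of its window, had 72.1% and 74.8% in KO1, 74.5% and 72.2% in KO2, and 51.0% and 51.3% in Control (22.2 points ± 3.07; limma adjusted p = 0.142). At both genes every knockout value was at or above 69.2% and every Control value at or below 51.3%.

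H4c2, an H4 gene, had 61.3% and 47.9% in KO1, 50.3% and 48.4% in KO2, and 35.3% and 19.1% in Control, a difference of 24.8 points ± 6.08 (SE; limma adjusted p = 0.201). H3c7, an H3 gene whose window was placed by H3K4me3 itself, had 63.2% and 63.1% in KO1, 75.9% and 60.3% in KO2, and 43.1% and 47.4% in Control (20.3 points ± 5.06; limma adjusted p = 0.202). Knockout and Control values did not overlap at either gene. H1f5, the H1 gene with the largest difference, had 67.2% and 81.6% in KO1, 78.0% and 63.0% in KO2, and 65.0% and 61.4% in Control (9.25 points ± 6.17; limma adjusted p = 0.574). Here KO2 replicate 2 lay within the Control range.

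On chromosome 11, H2aw, an H2A gene, had 80.7% and 85.4% H3K4me3 coverage in KO1, 93.0% and 86.4% in KO2, and 66.6% and 64.7% in Control. Its neighbour H2bu2, an H2B gene, had 26.99% and 11.2% in KO1, 37.9% and 31.9% in KO2, and 15.8% and 11.99% in Control. All knockout values of H2aw were above Control, while KO1 replicate 2 of H2bu2 was below both Control values. The differences were 20.7 points ± 3.28 and 13.1 points ± 5.33 (SE; limma adjusted p = 0.144 and 0.365), and the other tested genes of chromosome 11 had a median of 0.74 points. The 4 members with negative H3K4me3 differences were H2ac10 (−5.17 points), H4c8 (−3.87 points), H4c12 (−1.31 points) and H4c6 (−0.49 points), all with adjusted p of at least 0.719 in limma.

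The best covered gene of each class was near full coverage in most libraries. At H4c14 and H2bc21 the window had been placed by H3K4me3 itself. H2ac20 had 100% and 92.2% H3K4me3 coverage in KO1, 100% and 100% in KO2, and 83.8% and 89.6% in Control. H4c14 had 96.0% and 92.7% in KO1, 95.7% and 94.3% in KO2, and 89.8% and 93.5% in Control. H2bc21 had 93.7% and 90.2% in KO1, 100% and 98.0% in KO2, and 79.9% and 89.6% in Control. Knockout and Control ranges touched or crossed at H4c14 and stood apart at H2ac20 and H2bc21. H1f1 had 89.3% and 89.1% in KO1, 89.3% and 91.0% in KO2, and 76.5% and 84.7% in Control, and H3c3 had 79.2% and 89.9% in KO1, 91.5% and 90.8% in KO2, and 89.1% and 77.6% in Control. At H1f1 all knockout values were higher than Control, and at H3c3 the ranges overlapped.

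**Figure D4:**
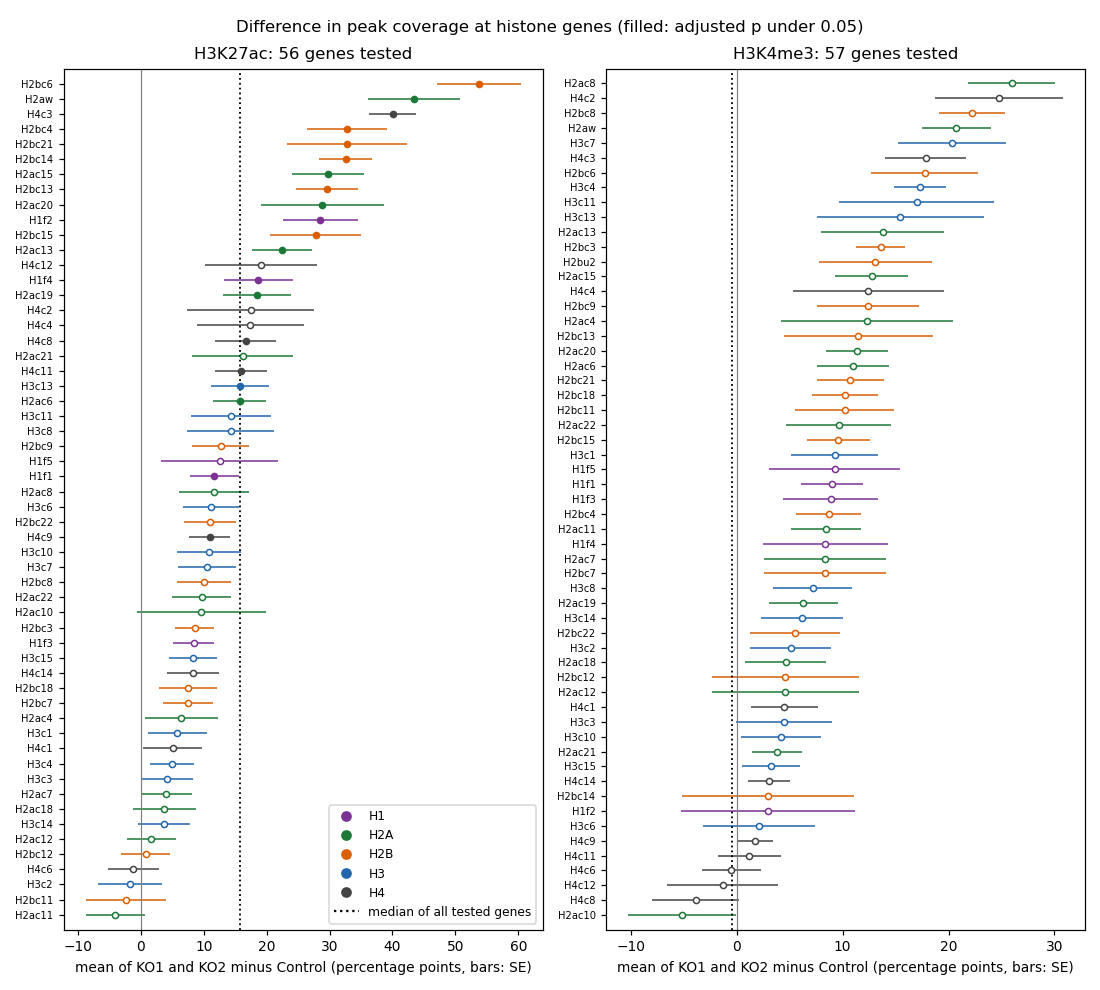
Difference in coverage between the mean of KO1 and KO2 and Control, in percentage points with its standard error, for each tested histone gene, for H3K27ac (left, 56 genes) and H3K4me3 (right, 57 genes). Filled points passed an adjusted p of 0.05 in limma and the dotted line is the median of all tested genes. Most H3K4me3 points lie right of that line at −0.44, and most H3K27ac points lie left of it at 15.7.

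H3K27ac coverage was higher in the knockout lines at 20 of the 56 members tested (limma, mean of KO1 and KO2 minus Control) and lower at 0. The same test called 56.6% of all 10156 genes tested higher and 0.0788% lower. The median difference was 11.4 points over the members and 15.7 points over all genes, and 52 of 56 members had a positive difference, but after quantile normalization, which shifted the median of all genes to −0.70 points, the members' median was −5.04 points and 14 of 56 were positive, with 0 called. All 4 knockout libraries lay above both Control libraries at 23 of 56 members (41.1%), against 35.2% of all genes, and below both at 0 members, against 0.0689%. The called members were 3 of 5 H1 genes, 6 of 15 H2A, 6 of 14 H2B, 1 of 12 H3 and 4 of 10 H4 genes.

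H2bc6, an H2B gene, had 58.3% and 71.8% H3K27ac coverage in KO1, 89.8% and 81.2% in KO2, and 29.0% and 13.9% in Control. The lowest knockout value was above both Control values by more than the spread in any group, and the difference was 53.8 points ± 6.62 (SE; limma adjusted p = 0.00681). At this gene the call also held after centring each library on the median of chromosome 13. The RefSeq entry of H2bc6 is 37455 bp long. Its window lies around the outermost start of that entry and reaches into the neighbouring gene H1f4. H4c3, an H4 gene, had 25.3% and 24.2% in KO1, 54.8% and 56.0% in KO2, and 0% in both Control libraries, a difference of 40.1 points ± 3.72 (limma adjusted p = 0.00681). H3K4me3 at the same window was 47.3% and 53.3% in KO1, 44.9% and 36.2% in KO2, and 28.0% and 27.2% in Control. The H4c3 window held H3K4me3 peaks in all libraries and H3K27ac peaks in the knockout libraries alone.

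H2aw had 51.0% and 31.3% H3K27ac coverage in KO1, 79.6% and 78.5% in KO2, and 9.45% and 23.9% in Control (43.4 points ± 7.24; limma adjusted p = 0.00866). H1f2, an H1 gene, had 93.3% and 72.9% in KO1, 93.2% and 94.6% in KO2, and 61.9% and 58.0% in Control (28.5 points ± 5.94; limma adjusted p = 0.0130). H3c13, the only called H3 gene, had 63.0% and 52.3% in KO1, 81.7% and 82.8% in KO2, and 56.9% and 51.4% in Control (15.8 points ± 4.64; limma adjusted p = 0.0306). KO1 overlapped Control at H3c13 and did not at H2aw and H1f2, and the difference at H3c13 was −2.22 points after quantile normalization.

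Of the 7 divergent pairs with both genes tested for H3K27ac, 2 had both genes called higher and the others had neither called. The windows of a pair share most of their bases, so calls within a pair are not independent. The same test called 56.6% of all genes higher. H2ac15 had 50.2% and 53.9% in KO1, 67.6% and 67.7% in KO2, and 38.0% and 22.2% in Control, and its partner H2bc15 had 53.7% and 58.7% in KO1, 67.6% and 68.1% in KO2, and 46.2% and 22.2% in Control. H2bc13 had 51.5% and 52.0% in KO1, 73.3% and 61.6% in KO2, and 30.2% and 29.8% in Control, and its partner H2ac13 had 60.1% and 60.7% in KO1, 73.3% and 61.6% in KO2, and 41.7% and 41.3% in Control. All knockout values were above both Control values in both pairs. The differences were 29.7 and 27.8 points in the first pair and 29.6 and 22.5 points in the second (limma adjusted p = 0.0108, 0.0220, 0.00865 and 0.0138). At another pair, H2ac12 and H2bc12, chosen after its values were seen, all libraries lay between 51.1% and 54.2% and the differences were 1.70 and 0.75 points.

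Among the remaining called genes, H2bc14 had 30.2% and 31.6% in KO1, 64.8% and 68.8% in KO2, and 17.1% and 15.4% in Control. H2bc4, a gene with a window placed by H3K4me3, had 51.2% and 62.6% in KO1, 73.0% and 78.5% in KO2, and 25.7% and 41.4% in Control. Both stood clear of Control in both lines. On chromosome 3, H2bc21 had 54.4% and 24.3% in KO1, 85.8% and 91.1% in KO2, and 22.1% and 40.1% in Control, and H2ac20 had 64.0% and 33.9% in KO1, 85.8% and 91.1% in KO2, and 29.9% and 49.7% in Control. At these last 2 genes, whose windows overlap, KO1 overlapped Control and KO2 did not. The calls of H2bc6, H4c3 and H2bc14 held with any 1 library left out. Fewer members and fewer of all genes were called in those fits. The members' median was 9.80 points without Control replicate 1 (14.9 over all genes) and 12.3 without Control replicate 2 (15.8 over all genes). It was 11.7 points without KO2 replicate 1 and 11.4 without KO2 replicate 2 (16.5 over all genes in both).

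The lines differed in H3K27ac. KO2 minus Control was called higher at 36 of 56 members, against 82.7% of all genes, and lower at 0, against 0.0394%, with a median of 19.5 points over the members and 26.6 over all genes. KO1 minus Control gave 0 calls in limma among members and among all genes (0% of genes tested), with 12 members and 1687 genes at an unadjusted p under 0.05 and medians of 4.99 and 4.62 points. The members' median was 3.00 points without KO1 replicate 1, 7.66 points without KO1 replicate 2, 0.20 points after quantile normalization and −2.39 points after centring on the chromosome median. The 12 members became 7 without KO1 replicate 2 and 5 without either KO2 replicate. The difference between the lines itself, KO2 minus KO1, was called higher at 17 members and lower at 0, against 65.4% higher and 0.0788% lower of all genes. After quantile normalization KO2 minus Control was called higher at 1 member and lower at 7 (422 and 335 of all genes), and KO2 minus KO1 at 0 in either direction (94 and 12 of all genes), with medians of −10.8 and −11.7 points over the members. After centring on the chromosome median the calls were 4 higher and 16 lower (486 and 1557 of all genes) for KO2 minus Control, and 0 and 2 (292 and 596 of all genes) for KO2 minus KO1. The number of members called higher in KO2 minus Control dropped to 18 without KO2 replicate 1, 14 without KO2 replicate 2 and 23 without Control replicate 1, and in KO2 minus KO1 to 5 without either KO2 replicate and 10 without KO1 replicate 2. H3c2, an H3 gene singled out after its values were seen, had 43.3% and 31.4% in KO1, 66.7% and 68.9% in KO2, and 51.7% and 56.8% in Control, so the lines lay on opposite sides of Control. Its H3K4me3 coverage was 66.2% and 68.4% in KO1, 79.9% and 70.5% in KO2, and 65.2% and 67.1% in Control.

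For H3K4me3, KO2 minus KO1 was called at 0 members in limma, against 0.0456% higher and 0.0076% lower of all genes. At an unadjusted p under 0.05 in limma there were 4 of 57 members and 1590 of 13160 genes.

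Across the clusters as a whole, covered bases were also read as a share of all covered bases of each library. The 3 clusters held 0.371% and 0.376% of all bases under H3K4me3 peaks in KO1, 0.398% and 0.419% in KO2, and 0.303% and 0.297% in Control. They held 0.507% and 0.521% of all bases under H3K27ac peaks in KO1, 0.458% and 0.456% in KO2, and 0.565% and 0.585% in Control. All 4 knockout libraries were above both Control libraries for H3K4me3 and below both for H3K27ac. The H3K4me3 lists covered 41.7 to 50.05 Mb in the knockout libraries, against 56.4 and 58.2 Mb in Control. Covered kb of the clusters overlapped between the groups for this mark. The H3K27ac share was lower although more bases of the clusters were covered, at 99.3 and 91.1 kb in KO1, 169.5 and 161.7 kb in KO2, and 81.1 and 85.5 kb in Control. These shares were not tested.

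In absolute length, H3K4me3 peaks within 1 kb of the histone genes covered 80.9 and 79.5 kb in KO1, 82.3 and 74.9 kb in KO2, and 70.9 and 67.6 kb in Control. H3K4me3 over the clusters in total came to 172.9 and 170.1 kb in KO1, 199.4 and 174.7 kb in KO2, and 176.4 and 167.6 kb in Control, where the groups overlapped. H3K27ac within 1 kb of the histone genes covered 61.5 and 57.6 kb in KO1, 80.4 and 79.0 kb in KO2, and 50.4 and 52.3 kb in Control. Of the H3K27ac bases in the clusters, 61.9% and 63.2% in KO1, 47.4% and 48.9% in KO2, and 62.2% and 61.1% in Control lay within 1 kb of a histone gene.

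**Figure D5:**
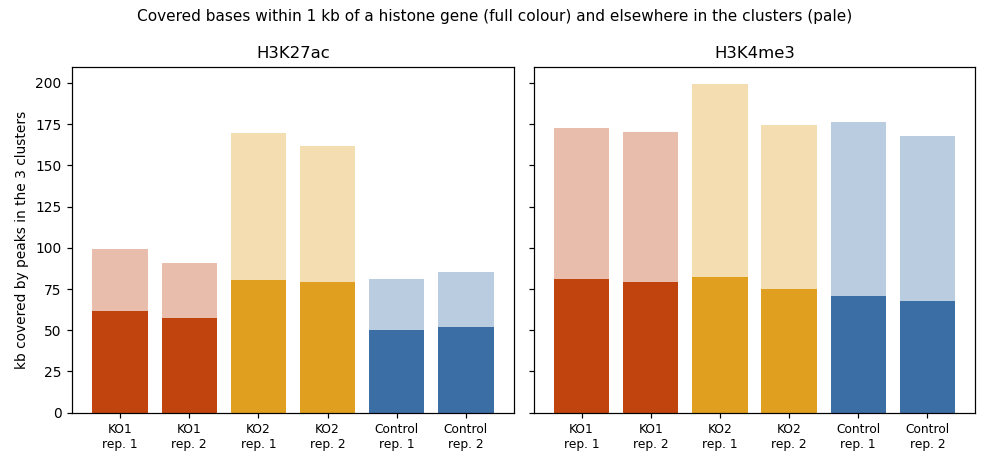
Kilobases covered by peaks in the 3 histone clusters, for H3K27ac (left) and H3K4me3 (right), 1 bar per library of KO1, KO2 and Control. Full colour marks bases within 1 kb of a histone gene and pale colour the rest of the clusters. For H3K4me3 the full-colour part is taller in the 4 knockout libraries (74.9 to 82.3 kb) than in Control (67.6 and 70.9 kb).

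The peaks at the histone genes were strong ones of their lists. By the authors' fold over background, each member's best peak had a median percentile in its list of 86.7 and 88.0 in KO1, 92.0 and 89.5 in KO2, and 87.3 and 90.5 in Control for H3K27ac, where other genes had 75.7 to 85.2. For H3K4me3 the members had 91.7 and 91.4 in KO1, 89.9 and 87.0 in KO2, and 90.9 and 88.1 in Control. The other genes had 89.6 and 89.3 in KO1, 89.1 and 88.3 in KO2, and 90.9 and 90.8 in Control. For this mark the members lay below the other genes in KO2 replicate 2 and Control replicate 2. These are ranks within lists of unequal length.

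The histone genes outside S-phase control, which encode replacement histones such as H3.3 and H2A.Z, gave a comparison. Of 11 tested for H3K27ac, 4 were higher (limma, against 56.6% of all genes) with a median of 15.0 points (−5.30 after quantile normalization, with 0 called), and of 10 tested for H3K4me3, 0 were called with a median of 1.67 points (8 of 10 positive). H1f10, a linker histone gene, had 44.4% and 48.3% H3K27ac coverage in KO1, 67.7% and 71.7% in KO2, and 7.70% and 20.2% in Control (44.1 points ± 5.27; limma adjusted p = 0.00681). H2az2, an H2A.Z gene, had a difference of 34.9 points ± 6.25 (limma adjusted p = 0.00976). The largest H3K4me3 differences in this group were 10.2 points at H1f10 and −9.68 points at Macroh2a1 (limma adjusted p = 0.204 and 0.351). These genes had less room to rise. Their median H3K4me3 coverage in Control was 83.5% and 85.3%, against 62.1% and 58.4% at the 59 members with a peak of either mark. The part of this level in the comparison was not tested.

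Among 26 genes for histone gene transcription and histone mRNA processing, 11 were higher in H3K27ac (against 56.6% of all genes) and 0 lower, with a median of 13.1 points (−4.03 after quantile normalization, with 0 called). Zfp473, which encodes a U7 snRNP-associated zinc-finger protein, had 45.6% and 8.30% in KO1, 72.7% and 79.0% in KO2, and 8.20% and 0% in Control (47.3 points ± 10.4; limma adjusted p = 0.0145). Ccne1, the cyclin E1 gene, had 64.4% and 45.3% in KO1, 83.7% and 85.1% in KO2, and 30.8% and 27.3% in Control (40.6 points ± 6.13; limma adjusted p = 0.00776). KO1 replicate 2 of Zfp473 lay near Control, and all knockout values of Ccne1 lay above it. For H3K4me3, 0 of 25 were called, with a median of −0.25 points. Lsm10, a U7 snRNP protein gene, had 34.98% and 38.1% in KO1, 28.2% and 29.0% in KO2, and 49.4% and 50.6% in Control (−17.4 points ± 2.81; limma adjusted p = 0.144). Coil, which encodes the coiled-body protein coilin, had 77.7% and 75.9% in KO1, 100% and 84.8% in KO2, and 75.1% and 60.7% in Control (16.7 points ± 5.99; limma adjusted p = 0.312).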

How the data were processed

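ChIP-seq peak lists of 12 libraries were analysed (H3K27ac and H3K4me3 in KO1, KO2 and Control, 2 each). The 6 input libraries were not analysed here. Per the labels' protocols, an automated Diagenode kit was used with Active Motif spike-in chromatin and antibody. The submitters' processing notes name mm10, CASAVA, Trimmomatic 0.38, Bowtie 1.2.2 and MACS2. The version of MACS2 and any use of inputs or spike-in are not stated in these sources. The deposited lists, 1 per library, give for each peak a score, the authors' fold enrichment (a ratio) and −log10 p-values and −log10 q-values. Scores were not used, fold was used for ranks within a list, and q for 1 alternative. Read depth is unknown.

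Coverage was the percent of the window of 1 kb on each side of the start that lay under peaks. Starts came from RefSeq (17492 of 21887 genes), and the other windows from the point of the gene with the most H3K4me3 (3129) or H3K27ac (23), or its midpoint (1243). Genes with a mean of at least 5% and unequal values were fitted with limma 3.58.1 in R 4.3.3 (lmFit, then eBayes with trend), with 1 mean per genotype and Benjamini-Hochberg adjustment over all genes tested at 0.05. No test was made of a list as a whole. On simulated coverage with a nominal change of 50 points, 90.5% of changed genes were recovered for H3K27ac and 88.5% for H3K4me3. Values were cut off at the ends of the scale, so some of these changes were smaller. With 30 points, 42.5% and 49.5% were recovered. The simulated libraries held no shift shared by all genes, unlike the H3K27ac data. Members and lists were chosen with earlier results of these data known. Every member was accounted for. Values per library are given for the gene of each class with the largest difference per mark, the one with the highest H3K4me3, both genes of chromosome 11, up to 12 called genes per mark, Mettl3, and the leading pair of genes in each list. A gene named outside this rule is marked as such. Alternatives were other windows, a stricter q, equal list lengths, scalings, a replicate block, fits of 1 line with Control, and leaving out each library. Python 3.11.15, numpy 2.4.6, pandas 2.3.3 and matplotlib 3.10.9 were used.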

Additional observations from a re-analysis of the deposited data

Results flagged for a closer look

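The knockout lines differed from each other in H3K27ac coverage at 8 named genes, tested as KO2 minus KO1 in limma with adjusted p under 0.05. The difference was 49.1 points at H2bc21, 39.5 at H2ac20, 37.9 at H2aw, 35.9 at H2bc14, 30.6 at H4c3, 30.4 at H3c2, 24.6 at H3c13 and 15.7 at H2bc13, with KO2 higher in each. Mettl3 itself differed by 19.2 points, with 63.9% and 56.1% in KO2, against 41.8% and 39.6% in KO1. The same contrast called 65.4% of all genes tested higher, and the H3K27ac lists of KO2 covered 37.0 and 35.5 Mb, against 19.6 and 17.5 Mb in KO1. After quantile normalization the same contrast called 0 members, 94 genes higher and 12 genes lower, and 9 of 56 members and 4638 of 10156 genes had a positive difference. The part of list length in these differences was not tested.

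H3c2 was also flagged because both KO1 libraries lay below the Control mean and both KO2 libraries above it. The 30.4 points between the lines were tested as above, while neither line was called against Control.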

How the results depend on the processing

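Peak coverage follows how much was called in each library, and with 2 libraries per genotype and no read depth, the H3K27ac calls changed with scaling. Genes called higher in H3K27ac (5748 of 10156 tested) numbered 2962 of 4082 over the gene plus 1 kb, 334 of 524 among genes of at most 3 kb tested alone, 2133 of 10219 in a window of 250 bp on each side, 2727 of 9161 with equal lists, 53 after centring on the chromosome median and 0 after quantile normalization, and 822 to 4917 with 1 library left out. Genes called lower (8) numbered 2, 0, 11, 5, 84 and 0 in the same order, and 0 to 10 with 1 library left out. Members called higher (20 of 56) numbered 34 of 57 in a window of 2 kb on each side (6204 of 9284 genes), 8 of 44 in that of 250 bp, 1 after centring (H2bc6) and 0 after quantile normalization, and 5 to 19 with 1 library left out. Of the 20, 13 kept a positive difference under each of these 2 scalings. Still called were 17 of the 20 in the 2 kb window, and 3 of the 17 tested in that of 250 bp.

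For H3K4me3, with 0 calls, the window of 2 kb called 104 genes higher and 661 lower, the gene plus 1 kb 197 and 2831, genes of at most 3 kb 12 and 25, the 250 bp window 5 and 3, q under 1e-04 1 and 3, equal lists 1 and 3, centring 6 and 5, and quantile normalization 0 and 3. Members called higher numbered 1 (H2bc3), 16, 5 and 1 (H2ac8) in the first 4, and 0 with any library left out. No member was called lower in any of these. The windows of 250 bp and the limit of 3 kb were added after seeing the data.

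Single differences reversed at H3c13 in H3K27ac (−2.22 points after quantile normalization, −5.98 after centring), at Mettl3 (−10.3 and −9.35), at H3c2 (5.29 at 2 kb, 2.84 at 250 bp, 1.29 without KO1 replicate 2, 0.85 without Control replicate 2, with −4.69 to 1.29 over all libraries left out) and at H3c3 in H3K4me3 (−1.27 without Control replicate 2, the lowest, and 10.3 without Control replicate 1, the highest). The causes were not tested. The clusters' share of covered bases moved for H3K27ac to 0.530% in KO1 and 0.472% in KO2 with the stricter q, and to 0.558% and 0.503% with equal lists, and for H3K4me3 to 0.383% in KO1 and 0.306% in Control with the stricter q and 0.310% in Control with equal lists. The number of marked members stayed within 1.5 times under each distance, overlap and list alternative.

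The replicate numbers did not pair the samples (correlations of deviations from −0.00801 to 0.0106). With the replicate block, H3K27ac had 5552 genes higher and 9 lower with 20 members higher, and H3K4me3 had 0.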

Other observations

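The other genes between the histone genes were described in the same way. Of 18 tested in the clusters, 4 had a positive H3K4me3 difference between the mean of KO1 and KO2 and Control, with a median of −2.02 points and 0 called in limma (53 of 57 histone genes were positive). The largest differences were −21.0 points at Btn1a1, a butyrophilin gene (limma adjusted p = 0.162), and −16.9 points at Mtmr11 (limma adjusted p = 0.173). For H3K27ac, 9 of 14 were higher and 0 lower in limma, against 56.6% of all genes. Trim11 (35.7 points) and Sf3b4, a splicing factor gene (32.4 points), had the largest differences. After quantile normalization 0 of the 14 were called, 7 were positive and the median was −0.68 points. Of the 77 other genes in the clusters, 56 had no H3K4me3 peak in their window in any library. The H3 gene H3f4 on chromosome 11, which the symbol rule did not take, is counted among these other genes and had an H3K4me3 difference of −1.17 points.

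Read over the gene plus 1 kb on each side, H3K4me3 was called higher at 16 of 57 histone genes and lower at 0 in limma. Of all 8693 genes tested, 197 were higher and 2831 lower, but in long genes this measure is mostly gene body. Among genes of at most 3 kb tested alone, 5 of 54 histone genes were higher and 0 lower. Of all 827 genes of that length, 12 were higher and 25 lower. Over the 55 histone genes that are at most 1000 bp long and have a peak of either mark within 1 kb, mean H3K4me3 coverage of the gene itself was 59.1% and 59.0% in KO1, 64.2% and 58.2% in KO2, and 47.2% and 46.2% in Control.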
